A study of Penicillium oxalicum with 24 samples.

Results

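*bgl1* (PDE_02736), *bgl2* (PDE_00579) and PDE_04251 are β-glucosidase genes of the filamentous fungus *Penicillium oxalicum*, and they were taken by their gene identifiers as 3 of the 9832 genes in the deposited table. β-Glucosidases act last in cellulose breakdown: they split cellobiose and short cellodextrins, which cellobiohydrolases and endoglucanases release from the polymer, into glucose. In cellulolytic fungi some of these enzymes are secreted and others stay in the cell, where they act on cellobiose and cellodextrins brought in by transporters. They can therefore both complete the digestion of cellulose and remove the sugars that serve as inducers of cellulase genes. The study describes BGL1 as a β-glucosidase found in the culture supernatant, BGL2 as the major intracellular β-glucosidase and PDE_04251 as a putative β-glucosidase. Its annotation places *bgl1* and PDE_04251 under the same KEGG ortholog group and *bgl2* under another. The coding lengths in the table are 2586 bases for *bgl1*, 1452 for *bgl2* and 2523 for PDE_04251. Sequences and genome positions of these genes were not analysed here.

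The series holds 24 RNA-seq libraries of mycelium from 8 strain and medium groups, with 3 replicates in each. The wild-type strain 114-2 was grown for 22 h on 2% glucose, held without carbon source for 2 h, and then kept for 4 h without carbon source, on 2% glucose or on 2% cellulose; for the cultures without carbon source the labels leave out the 2 h step, which the study's methods give for all media. The mutants were all sampled after 4 h on 2% cellulose. They were Δ*clrB*, Δ*amyR*, Δ*creA*, a strain with both *clrB* and *creA* deleted (Δ*creA*-Δ*clrB*) and 1 engineered strain. ClrB is an activator of cellulase genes, CreA mediates carbon catabolite repression, and AmyR activates genes of starch breakdown. The engineered strain is Δ*creA-gpdA*(p)::*clrB*, in which *creA* is deleted and a *clrB* coding region stands behind the constitutive *gpdA* promoter of *Aspergillus nidulans*. It is called the engineered strain below. The strains were made by transformation with drug-resistance cassettes (*hph* at *creA*, *ptra* with *gpdA*(p)::*clrB*), and each genotype is represented by 1 strain. According to the study, mutants of these regulators were remade in the wild-type background, apart from the Δ*pku70* library in which they were first screened.

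The libraries held 6.95 M to 8.58 M uniquely mapped reads on genes. The targeted genes matched the labels: *clrB* had at most 0.167 RPKM (reads per kilobase of coding length, scaled to the mapped reads of the library) in the 6 Δ*clrB* and Δ*creA*-Δ*clrB* libraries, against 107 to 114 RPKM in the wild type on cellulose. *creA* had at most 0.200 RPKM in the 9 libraries with *creA* deleted, against 307 to 371 RPKM in the wild type on cellulose. *amyR* had at most 0.0727 RPKM in the 3 Δ*amyR* libraries, against 209 to 214 RPKM in the wild type on cellulose. *clrB* reached 358 to 546 RPKM in the engineered strain. Libraries of 1 group differed by more than the sampling noise of their counts in all 24 pairs of libraries, so none was counted as a repeat of another. Replicate 1 of the wild type without carbon source stood apart for *bgl1*, as described below. The mycelium was sequenced in bulk, so fewer cells with a transcript and less of it per cell cannot be told apart.

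The 3 genes were detected in all 24 libraries, at levels that spanned 120.8-fold between group means for *bgl1*, 351.5-fold for *bgl2* and 78.8-fold for PDE_04251. The lowest read counts in any library were 52 for *bgl1*, 122 for *bgl2* and 193 for PDE_04251. In glucose cultures of the wild type, where *bgl1* was lowest, reads covered 58.6% to 71.7% of its coding length. In the other 21 libraries they covered at least 99.6% of it. All 3 genes passed the filter on low values, which kept 9176 genes.

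**Figure D1:**
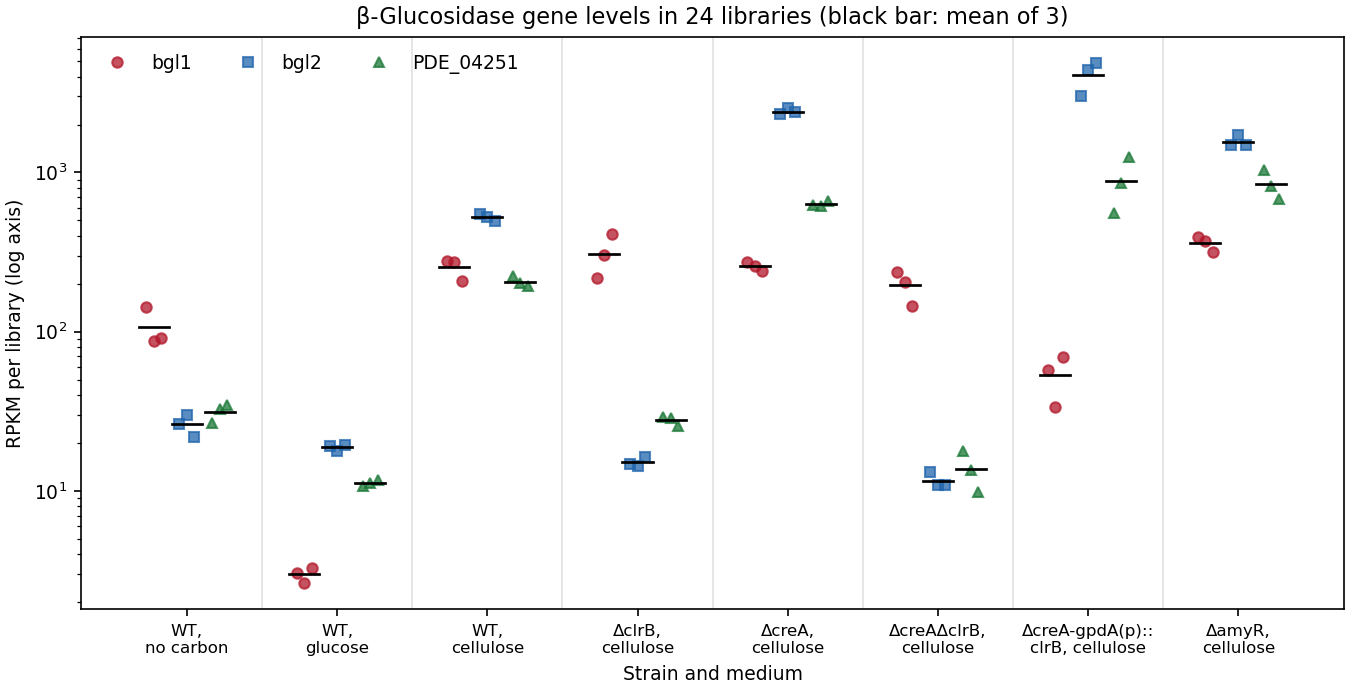
RPKM of *bgl1* (red circles), *bgl2* (blue squares) and PDE_04251 (green triangles) in each library, on a log axis, for the 8 combinations of strain and medium; the black bar is the mean of 3 libraries. *bgl2* ran from 10.9 to 13.1 RPKM in Δ*creA*-Δ*clrB* up to 3014 to 4882 RPKM in the engineered strain (Δ*creA-gpdA*(p)::*clrB* on the axis), while *bgl1* was lowest on glucose, at 2.63 to 3.28 RPKM.

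The order of the levels differed between *bgl1* and the other 2 genes. By mean RPKM, *bgl1* was lowest in the wild type on glucose, then rose through the engineered strain, the wild type without carbon source, Δ*creA*-Δ*clrB*, the wild type on cellulose, Δ*creA* and Δ*clrB* to Δ*amyR*. From Δ*creA*-Δ*clrB* upwards the libraries of each pair of neighbours in this order overlapped, with means of 195.8 to 361.8 RPKM. *bgl2* was lowest in Δ*creA*-Δ*clrB*, followed by Δ*clrB*, the wild type on glucose and the wild type without carbon source, with means of 11.6 to 26.2 RPKM in these 4 groups. It was then far higher in the wild type on cellulose, Δ*amyR*, Δ*creA* and the engineered strain, with means of 521.7, 1561, 2409 and 4091 RPKM. No neighbours in the *bgl2* order overlapped in RPKM, but the 4 low groups did once the values were divided by TMM factors (scale factors set from the bulk of the genes rather than from the total), so their order is not resolved. PDE_04251 had the same 4 low groups, with means of 11.2 to 31.3 RPKM, and the same 4 high groups, with means of 206.2 to 885.2 RPKM. In RPKM, within its high groups Δ*amyR* and the engineered strain overlapped, and within its low groups glucose overlapped Δ*creA*-Δ*clrB*, and Δ*clrB* overlapped the wild type without carbon source. After division by TMM factors the neighbours of PDE_04251 changed: the 3 highest groups overlapped in turn, glucose stood below Δ*creA*-Δ*clrB* without overlap, and Δ*clrB* stood above the wild type without carbon source without overlap. For *bgl1* the same division put the wild type on cellulose below Δ*creA*-Δ*clrB*, and these groups overlapped on both scales.

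The first question was how the genes responded to the carbon source in the wild type. On cellulose, *bgl1* had 277, 274 and 209 RPKM in the 3 libraries, against 143, 87.7 and 91.1 RPKM without carbon source and 3.08, 2.63 and 3.28 RPKM on glucose. The 3 media did not overlap, and on the log scale the level without carbon source was closer to that on cellulose than to that on glucose. *bgl2* had 551, 521 and 493 RPKM on cellulose, 26.4, 30.2 and 21.9 RPKM without carbon source and 19.1, 17.7 and 19.5 RPKM on glucose. For this intracellular enzyme the cultures without carbon source and on glucose lay close together, and cellulose stood far above both. PDE_04251 had 223, 202 and 194 RPKM on cellulose, 26.8, 32.6 and 34.6 RPKM without carbon source and 10.8, 11.1 and 11.8 RPKM on glucose, and its 3 media did not overlap.

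Cellulose raised the 3 genes over both reference media, by different amounts. Against no carbon source the log2 fold change was 1.41 ± 0.29 (SE) for *bgl1*, 4.5 ± 0.22 for *bgl2* and 2.91 ± 0.26 for PDE_04251, with edgeR adjusted p of 0.0013, 2.6e-12 and 6.5e-08. In this comparison 3.02% of the 9176 genes tested were called higher (adjusted p under 0.05 and a log2 fold change beyond 1 in size), and the 3 members were among them. Against glucose the log2 fold change was 6.38 ± 0.36 for *bgl1*, 4.78 ± 0.22 for *bgl2* and 4.18 ± 0.27 for PDE_04251, with edgeR adjusted p of 5.5e-12, 2.9e-13 and 4.4e-11; 22.6% of all genes were called higher. *bgl1* thus had the smallest fitted increase of the 3 over no carbon source and the largest over glucose. The comparisons share the cellulose libraries. All 3 genes were already listed in the study's cellulose regulon, drawn from these same wild-type libraries. The raised genes of that regulon were those higher on cellulose than in both other media. Calls against both media thus repeat that listing and are not a separate result.

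Glucose and the absence of a carbon source separated the 3 genes. *bgl1* was lower on glucose, with a log2 fold change of -4.97 ± 0.34 (edgeR adjusted p = 9.1e-11), or 31.4-fold. PDE_04251 was lower by a smaller amount, with a log2 fold change of -1.27 ± 0.25 (edgeR adjusted p = 0.00013), and 23.1% of all genes were called lower. *bgl2* was not called, with a log2 fold change of -0.27 ± 0.19 (edgeR adjusted p = 0.21) and a 95% interval of -0.67 to 0.12, although its RPKM ranges in these media did not overlap. Under scaling to library totals it was -0.48 (edgeR adjusted p = 0.017), still under the size needed for a call. Replicate 1 without carbon source held 143 RPKM of *bgl1* against 87.7 and 91.1 in the other 2. Its PDE_04251 value, 26.8 RPKM, was the lowest of its group. When each library of these comparisons was left out in turn, all 3 genes kept their calls in the wild type.

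**Figure D2:**
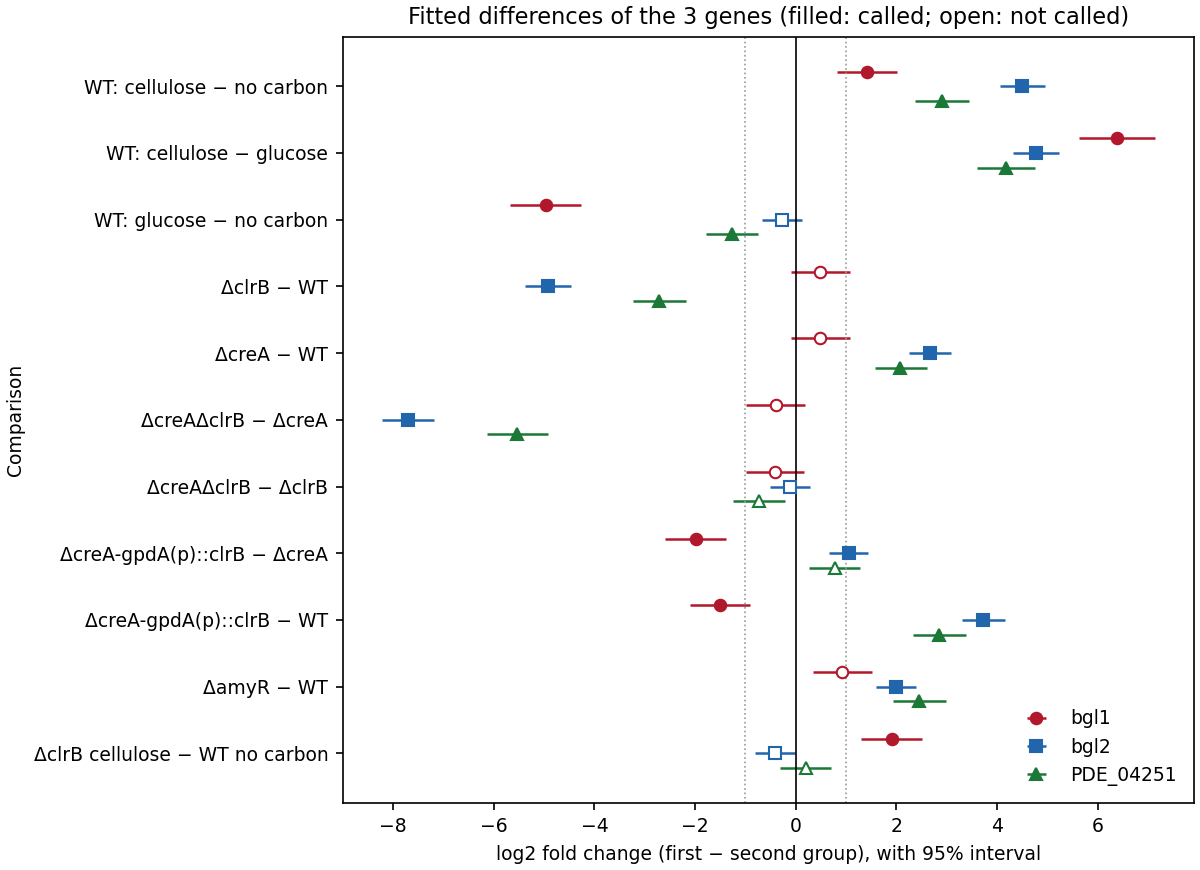
Fitted log2 fold changes of *bgl1* (red circles), *bgl2* (blue squares) and PDE_04251 (green triangles) in 11 comparisons, each the first group minus the second, with 95% intervals from the quasi-likelihood fit; filled points were called, open points were not, and dotted lines mark a log2 fold change of 1 in size. Deleting *clrB* moved *bgl2* by -4.92 and PDE_04251 by -2.71 but *bgl1* by 0.49.

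Deletion of *clrB* asked whether the activator is needed for these levels on cellulose. In Δ*clrB*, *bgl2* had 14.7, 14.3 and 16.4 RPKM, where the wild type had 551, 521 and 493 RPKM. PDE_04251 had 29.1, 28.6 and 25.5 RPKM, where the wild type had 223, 202 and 194 RPKM. Both genes were lower than any wild-type library by a wide gap. *bgl1* had 217, 301 and 410 RPKM, and this range contained that of the wild type apart from its lowest library, at 209 RPKM.

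The fitted log2 fold change of Δ*clrB* against the wild type was -4.92 ± 0.22 for *bgl2* (edgeR adjusted p = 3.6e-12), or 30.2-fold lower. It was -2.71 ± 0.25 for PDE_04251 (edgeR adjusted p = 5.0e-07), or 6.56-fold lower. These were 2 of the 103 genes called lower, 1.12% of all genes tested. For *bgl1* the log2 fold change was 0.49 ± 0.28 (edgeR adjusted p = 0.37), with a 95% interval of -0.09 to 1.08, so a fall of the size seen in *bgl2* lies outside the interval. The *bgl1* value depended on the library with 410 RPKM: without Δ*clrB* replicate 3 the log2 fold change was 0.16, and no left-out library brought a call.

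Δ*clrB* on cellulose was also set against the wild type without any carbon source. *bgl2* differed by a log2 fold change of -0.41 ± 0.19 (edgeR adjusted p = 0.11; 95% interval -0.81 to -0.01) and PDE_04251 by 0.20 ± 0.24 (edgeR adjusted p = 0.56; 95% interval -0.31 to 0.70), and neither was called. Under scaling to library totals *bgl2* stood at -0.79 (edgeR adjusted p = 0.00095), still under the size needed for a call, and the sign for PDE_04251 turned, at -0.18. *bgl1* was called higher in Δ*clrB* on cellulose, with a log2 fold change of 1.91 ± 0.29 (edgeR adjusted p = 5.5e-05), where 5.35% of all genes were called higher. Without *clrB*, cellulose cultures thus held *bgl1* above its starved wild-type level.

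Deletion of *creA* raised *bgl2* and PDE_04251 on cellulose. *bgl2* had 2315, 2530 and 2380 RPKM in Δ*creA*, a log2 fold change of 2.67 ± 0.20 over the wild type (edgeR adjusted p = 4.3e-09). PDE_04251 had 627, 612 and 659 RPKM, a log2 fold change of 2.08 ± 0.25 (edgeR adjusted p = 2.9e-06). All 3 Δ*creA* libraries lay above the 3 wild-type libraries for both genes, and 6.43% of all genes were called higher. *bgl1* had 274, 258 and 241 RPKM, which overlapped the wild type, and its log2 fold change was 0.49 ± 0.28 (edgeR adjusted p = 0.21; 95% interval -0.10 to 1.07). With library totals in place of TMM the difference was 0.02.

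In the Δ*creA* background the loss of *clrB* took *bgl2* from those levels to 13.1, 10.9 and 10.9 RPKM. The log2 fold change of Δ*creA*-Δ*clrB* against Δ*creA* was -7.71 ± 0.25 (edgeR adjusted p = 9.5e-15), or 208.7-fold lower. PDE_04251 fell to 17.8, 13.6 and 9.79 RPKM, a log2 fold change of -5.53 ± 0.29 (edgeR adjusted p = 1.6e-11). The 2 genes were among the 7.68% of all genes called lower. *bgl1* had 238, 204 and 145 RPKM in the double deletion, all below the Δ*creA* libraries, and was not called, with a log2 fold change of -0.40 ± 0.28 (edgeR adjusted p = 0.27; 95% interval -0.99 to 0.18).

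**Figure D3:**
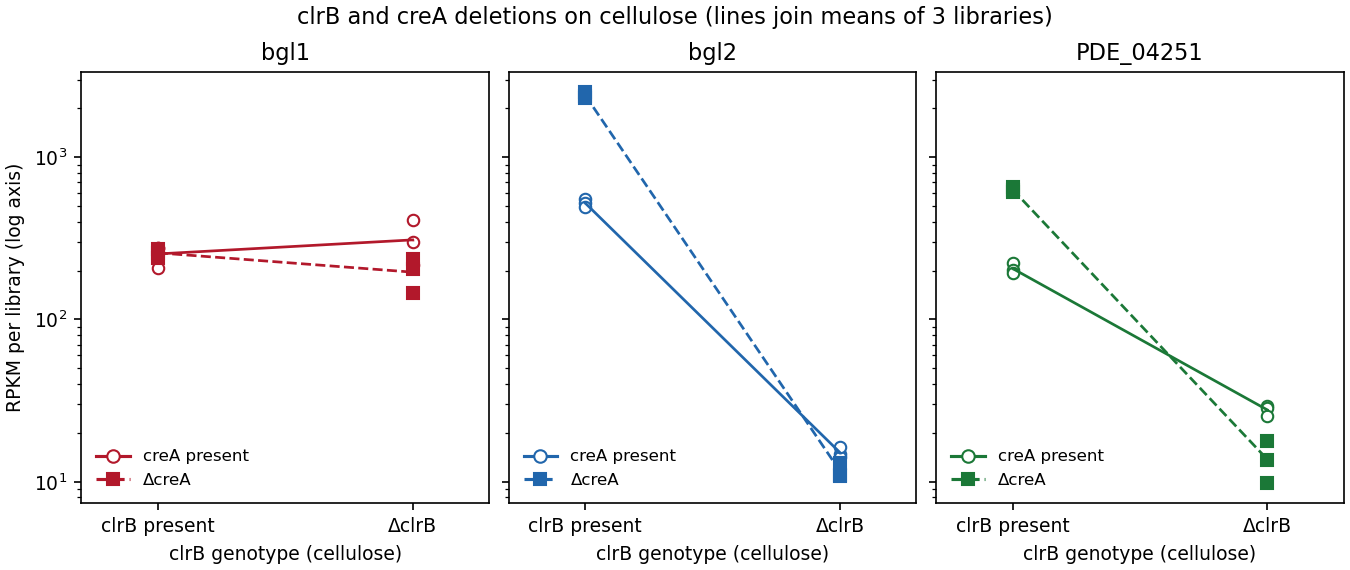
RPKM per library on cellulose, on a log axis, with *clrB* present or deleted, in strains that carry *creA* (open circles, solid line) or lack it (filled squares, dashed line); lines join the means of 3 libraries and each panel is 1 gene. The *bgl2* and PDE_04251 lines start apart and cross, with the Δ*creA* strain higher where *clrB* is present. Where *clrB* is absent, the difference between the strains was not called for either gene. The *bgl1* means lie between 195.8 and 309.5 RPKM, and its single libraries between 145 and 410 RPKM.

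With *clrB* absent, *bgl2* and PDE_04251 were not called higher on deleting *creA*, and *bgl1* was not called in either background. Δ*creA*-Δ*clrB* against Δ*clrB* gave a log2 fold change of -0.12 ± 0.20 for *bgl2* (edgeR adjusted p = 0.65; 95% interval -0.52 to 0.29) and -0.41 ± 0.28 for *bgl1* (edgeR adjusted p = 0.24). For PDE_04251 it was -0.73 ± 0.24 (edgeR adjusted p = 0.020), under the size needed for a call. That size was passed under scaling to library totals, at -1.01, and without Δ*creA*-Δ*clrB* replicate 1, also at -1.01. In this comparison 9.99% of all genes were called higher and 7.99% lower.

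The interaction term tested whether the effect of the *clrB* deletion differed between the Δ*creA* and the *creA*-carrying strains. It was -2.79 ± 0.27 on the log2 scale for *bgl2* (edgeR adjusted p = 1.5e-06) and -2.82 ± 0.35 for PDE_04251 (edgeR adjusted p = 2.3e-05), so for both genes the fall on losing *clrB* was larger without *creA*. The same term says that the rise on losing *creA* was larger with *clrB* present. Of all genes tested, 5.65% had an interaction called below 0. For *bgl1* the term was -0.90 ± 0.40 (edgeR adjusted p = 0.13; 95% interval -1.72 to -0.07), which was not called.

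Constitutive *clrB* in the Δ*creA* background moved *bgl1* and *bgl2* in opposite directions. *bgl1* fell to 57.9, 33.8 and 69.5 RPKM in the engineered strain, below the 3 Δ*creA* libraries. In RPKM these values were also below the wild type without carbon source, but the groups overlapped once divided by TMM factors. Its log2 fold change was -1.99 ± 0.29 against Δ*creA* (edgeR adjusted p = 9.2e-05), where 4.12% of all genes were called lower. Against the wild type on cellulose it was -1.51 ± 0.29 (edgeR adjusted p = 0.00022), where 12.2% were called lower, and -2.24 under scaling to library totals. This secreted-enzyme gene was thus lowest among the cellulose cultures in the strain with the most *bgl2* mRNA.

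*bgl2* had 3014, 4378 and 4882 RPKM in the engineered strain, above the 3 Δ*creA* libraries. The log2 fold change against Δ*creA* was 1.05 ± 0.19 (edgeR adjusted p = 0.00053), just past the size needed, and 3.27% of all genes were called higher. The call was lost under scaling to library totals, at 0.76, and without replicate 2 or replicate 3 of the engineered strain, at 0.95 and 0.93. Against the wild type the log2 fold change was 3.73 ± 0.21 (edgeR adjusted p = 2.8e-11), and 11.3% of all genes were called higher. Under library totals this value was 2.97 for *bgl2* and 2.10 for PDE_04251, and both stayed called. PDE_04251 spread widely in this strain, with 555, 858 and 1242 RPKM. It was called against the wild type, at 2.85 ± 0.25 (edgeR adjusted p = 2.3e-08), but not against Δ*creA*, at 0.77 ± 0.24 (edgeR adjusted p = 0.027; 95% interval 0.27 to 1.27). Without replicate 1, its lowest library, the value against Δ*creA* was 1.04 and was called.

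Deletion of *amyR* raised *bgl2* and PDE_04251 without any change to *clrB* or *creA* in the genotype. *bgl2* had 1480, 1726 and 1479 RPKM in Δ*amyR*, a log2 fold change of 1.99 ± 0.19 over the wild type (edgeR adjusted p = 9.1e-07). PDE_04251 had 1041, 822 and 683 RPKM, a log2 fold change of 2.45 ± 0.25 (edgeR adjusted p = 1.9e-06). No Δ*amyR* library overlapped the wild type for either gene, and 3.36% of all genes were called higher. *bgl1* had 393, 374 and 319 RPKM, also above the 3 wild-type libraries, with a log2 fold change of 0.92 ± 0.28 (edgeR adjusted p = 0.026) that stayed under the size needed for a call. It passed at 1.01 without wild-type replicate 1 and at 1.02 without Δ*amyR* replicate 3, and it was 0.51 under scaling to library totals.

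The composition of the β-glucosidase transcripts was described by the share of each gene in the summed RPKM of the 3 genes. The study predicts further β-glucosidase genes, which this sum leaves out, so it is not the total β-glucosidase transcript. The sum was 981.4 ± 79.2 RPKM (SD, n = 3) in the wild type on cellulose, 164.7 ± 27.1 without carbon source and 33.0 ± 1.5 on glucose. In the mutants on cellulose it was 352.3 ± 96.0 in Δ*clrB*, 221.1 ± 51.6 in Δ*creA*-Δ*clrB*, 2772 ± 252.7 in Δ*amyR*, 3299 ± 93.9 in Δ*creA* and 5030 ± 1300 in the engineered strain. Among the cellulose cultures of strains that carry *clrB*, the sum ranked as *bgl2* did. *bgl2* was the largest part of the sum in these groups, so this order largely follows from how the sum is made.

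*bgl1* made up 25.7% ± 2.2 (SD, n = 3) of the sum in the wild type on cellulose, where *bgl2* made up 53.2% ± 1.6 and PDE_04251 21.0% ± 0.73. Without carbon source *bgl1* was the main transcript, at 64.3% ± 7.6. On glucose it was the smallest, at 9.06% ± 0.62, beside 56.9% ± 0.97 for *bgl2* and 34.0% ± 1.4 for PDE_04251. In the strains without *clrB*, *bgl1* supplied most of the sum, 87.2% ± 3.8 in Δ*clrB* and 88.4% ± 0.88 in Δ*creA*-Δ*clrB*. *bgl2* held 4.47% ± 1.05 and 5.40% ± 1.02 there. In Δ*creA*, *bgl2* held 73.0% ± 1.3 and *bgl1* 7.81% ± 0.61, and in the engineered strain they held 81.7% ± 2.5 and 1.12% ± 0.48. PDE_04251 had its largest share on cellulose in Δ*amyR*, at 30.5% ± 4.6, where *bgl2* held 56.5% ± 5.0 and *bgl1* 13.0% ± 0.38.

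**Figure D4:**
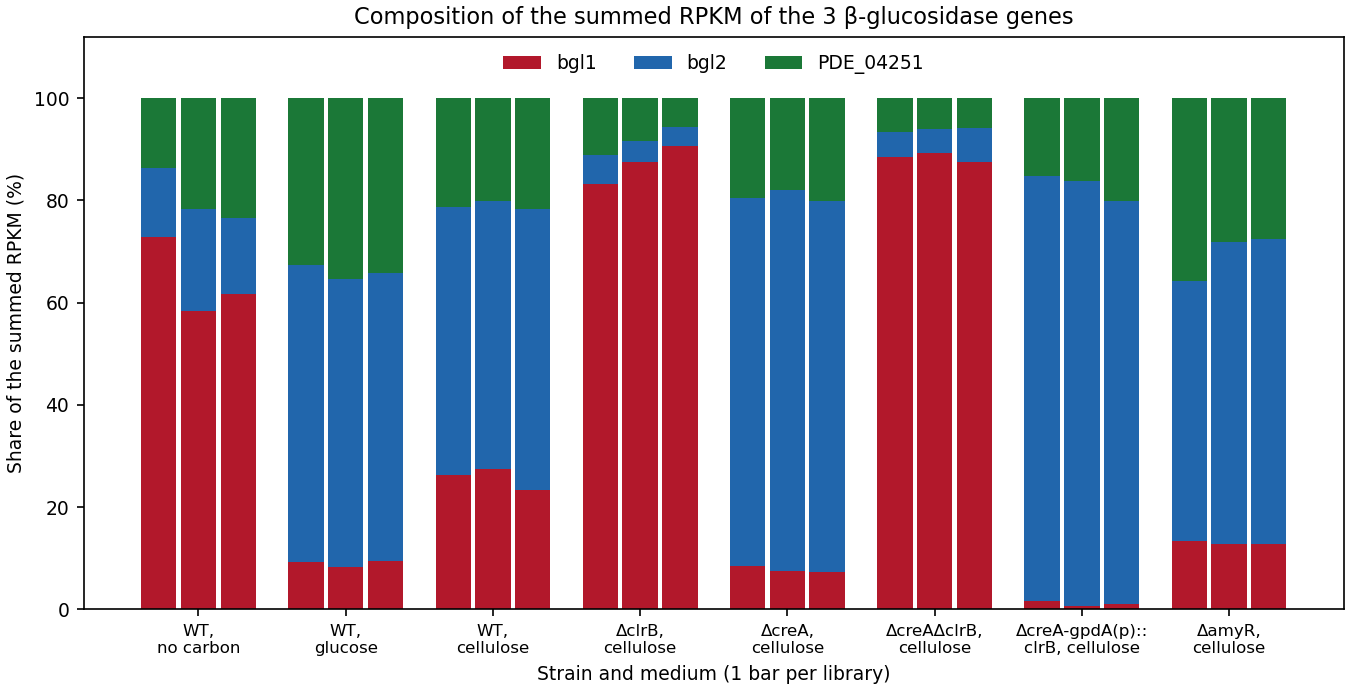
Share of *bgl1* (red), *bgl2* (blue) and PDE_04251 (green) in the summed RPKM of the 3 genes, in percent, with 1 bar per library and 3 bars for each combination of strain and medium. *bgl1* takes 83.2% to 90.7% of the sum in the libraries without *clrB* and 0.641% to 1.60% of it in the engineered strain.

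Since the shares are tied to each other, the difference between 2 genes was tested as the log2 ratio of their RPKM within each library, which does not depend on the scaling of the library. There were 3 pairs and 5 tests for each, 15 in all, and the p-values were adjusted over them. The mean log2 ratio of *bgl2* to *bgl1* in the wild type was -2.01 ± 0.45 (SD, n = 3) without carbon source, 1.05 ± 0.16 on cellulose and 2.65 ± 0.09 on glucose. *bgl1* exceeded *bgl2* 4.03-fold in the first of these media, and *bgl2* exceeded *bgl1* in the other two. The media differed in each of the 3 ratios (exact permutation test over all assignments of 9 libraries to the media, two-sided, p = 0.00357, the smallest it can give, adjusted p = 0.0107).

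Deleting *clrB* changed the ratio of *bgl2* to *bgl1* by -6.32 on the log2 scale, on average over the strains with and without *creA* (exact permutation test within each *creA* background, 400 assignments, two-sided, p = 0.005, the smallest it can give, adjusted p = 0.0107), with all 6 deleted libraries below all 6 others. The ratio of PDE_04251 to *bgl1* changed by -4.15 and that of *bgl2* to PDE_04251 by -2.17 in the same test, with the same p. *bgl1* therefore responded to the deletion differently from both other genes, and *bgl2* more strongly than PDE_04251. Deleting *creA* raised the ratio of *bgl2* to *bgl1* by 1.22 (exact permutation test within each *clrB* background, two-sided, p = 0.02, adjusted p = 0.0375) and that of *bgl2* to PDE_04251 by 0.63 (p = 0.005 and adjusted p = 0.0107 by the same exact test). The ratio of PDE_04251 to *bgl1* changed by 0.59 (p = 0.105 and adjusted p = 0.113 by the same exact test). These are means over 2 backgrounds. The mean log2 ratio of *bgl2* to *bgl1* went from 1.05 in the wild type to 3.23 in Δ*creA*, and from -4.31 in Δ*clrB* to -4.05 in Δ*creA*-Δ*clrB*. That of PDE_04251 to *bgl1* moved in opposite directions, from -0.29 to 1.3 with *clrB* present and from -3.44 to -3.85 without it, so that its mean change describes neither. That of *bgl2* to PDE_04251 moved alike, from 1.34 to 1.93 and from -0.87 to -0.20. The difference between backgrounds was not tested for the ratios.

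**Figure D5:**
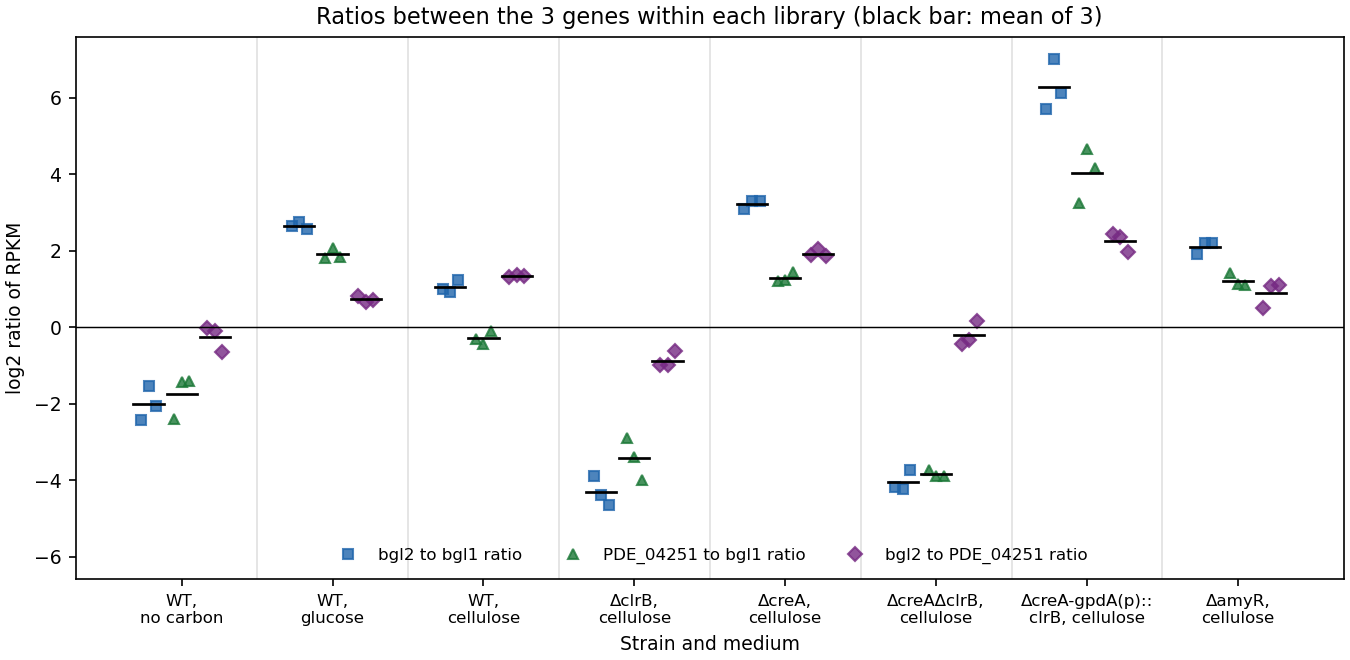
Log2 ratio of RPKM within each library for *bgl2* to *bgl1* (blue squares), PDE_04251 to *bgl1* (green triangles) and *bgl2* to PDE_04251 (purple diamonds); the black bar is the mean of 3 libraries and 0 marks equal levels. *bgl2* to *bgl1* runs from -4.64 to -3.73 in the libraries without *clrB* and from 5.70 to 7.02 in the engineered strain.

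For *gpdA*(p)::*clrB* in Δ*creA*, and for the *amyR* deletion, 3 libraries stood against 3, and an exact permutation test cannot go below p = 0.10. The ratio of *bgl2* to *bgl1* differed by 3.06 with *gpdA*(p)::*clrB* and by 1.06 with the *amyR* deletion, and that of PDE_04251 to *bgl1* by 2.73 and 1.5, with no overlap of libraries in any of the 4 cases (exact test p = 0.1, adjusted p = 0.113). The ratio of *bgl2* to PDE_04251 changed by 0.33 with *gpdA*(p)::*clrB* (exact test p = 0.2, adjusted p = 0.2) and by -0.44 with the *amyR* deletion (exact test p = 0.1, adjusted p = 0.113).

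Across the 24 libraries the levels of *bgl2* and PDE_04251, as log2(RPKM + 1), had a Pearson r of 0.98, and *bgl1* had an r of 0.26 with *bgl2* and 0.40 with PDE_04251. These are descriptions over libraries that fall into 8 groups of 3. After the mean of each group was removed, r was 0.59 for *bgl2* with PDE_04251, 0.19 for *bgl1* with *bgl2* and 0.21 for *bgl1* with PDE_04251. The genes most like *bgl2* over the 24 libraries were the endoglucanase gene *eg2* (PDE_09226, r = 0.98), PDE_04251 (r = 0.98), the cellodextrin transporter gene PDE_00607 (r = 0.98), and the cellulase genes PDE_07124 (r = 0.98) and PDE_09969 (r = 0.97). For PDE_04251 they were PDE_09969 (r = 0.99), *eg2* (r = 0.98), *bgl2*, the putative α-xylosidase gene PDE_06944 (r = 0.98) and PDE_00607 (r = 0.98). For *bgl1* no cellulase gene was among the closest 5, which were PDE_09947, PDE_05528, PDE_04264, the putative pectin acetylesterase gene PDE_03289 and PDE_05476, with r of 0.96 each.

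Another gene, PDE_04859, is also described as a β-glucosidase gene by the study. It varied less, from a mean of 12.7 RPKM on glucose to 193.2 RPKM in the engineered strain. In the wild type it had 92.1 ± 5.4 RPKM (SD, n = 3) on cellulose and 63.9 ± 4.9 RPKM without carbon source, and its log2 fold change between them, 0.71 ± 0.17, was not called. It changed by -2.12 ± 0.18 on glucose against no carbon source (edgeR adjusted p = 2.4e-09), and by -2.41 ± 0.18 on losing *clrB* in Δ*creA* (edgeR adjusted p = 4.1e-09). With *creA* in place the loss of *clrB* gave -0.63 ± 0.17 (edgeR adjusted p = 0.038), which was not called, and the interaction was -1.78 ± 0.24 (edgeR adjusted p = 7.5e-05). Like *bgl2* and PDE_04251, PDE_04859 was called higher than in the wild type on cellulose in 3 mutants. The log2 fold change was 1.24 ± 0.17 in Δ*creA* (edgeR adjusted p = 1.7e-05) and 1.0 ± 0.17 in Δ*amyR* (edgeR adjusted p = 0.00041). In the engineered strain it was 1.82 ± 0.17 (edgeR adjusted p = 5.4e-08). The shares of all genes called higher were 6.43%, 3.36% and 11.3%. When it is counted in the sum, *bgl1* holds 46.4% ± 8.1 of it without carbon source and PDE_04859 28.2% ± 4.0; on cellulose in the wild type PDE_04859 holds 8.62% ± 0.99.

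The 18 predicted cellulase genes, whose products act before β-glucosidases, give the setting for these values. On cellulose against no carbon source 10 of the 18 were called higher, beside 3.02% of all genes. The median log2 fold change was 3.36 beside 0.00 over all genes. On glucose against no carbon source 10 were called lower and 3 higher, beside 2123 and 1785 of all 9176 genes. The median was -1.41 beside 0.05. In Δ*clrB* 10 of the 18 were called lower, beside 1.12% of all genes (median -1.97 beside 0.00). In Δ*creA*-Δ*clrB* against Δ*creA* 13 were called lower, beside 7.68% of all genes (median -6.13 beside 0.02). In Δ*creA*-Δ*clrB* against Δ*clrB*, where *bgl2* and PDE_04251 were not called, 4 cellulase genes were called higher, beside 9.99% of all genes (median 0.36 beside 0.02). In Δ*creA* 14 were called higher, beside 6.43% of all genes (median 4.23 beside 0.01). In Δ*amyR* 11 were called higher and 1 lower, beside 308 and 384 of all 9176 genes (median 2.39 beside -0.02). In the engineered strain against Δ*creA* 6 were called higher, beside 3.27% of all genes (median 0.68 beside 0.01). The interaction was called below 0 for 11 of them, beside 5.65% of all genes (median -2.55 beside 0.01). The calls for *bgl2* and PDE_04251 in Δ*clrB*, Δ*creA* and Δ*amyR* went the way of most calls among these cellulase genes, while *bgl1* was not called in these 3 mutants.

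Cellodextrin transporters supply the substrate of an intracellular β-glucosidase. All 3 transporter genes of the list were called higher on cellulose than without carbon source, beside 3.02% of all genes. The study names them among the raised genes of its cellulose regulon, drawn from the same libraries. These 3 calls thus repeat how the list was drawn and are not a separate result. Their log2 fold changes ran from 2.17 (PDE_07257) to 5.84 (PDE_00607). In Δ*clrB* 1 of the 3 was called lower, PDE_00607, at -6.6, beside 1.12% of all genes. The median of the 3 was -0.79. In Δ*creA* 2 of the 3 were called higher, beside 6.43% of all genes, with a median of 1.59. In Δ*amyR* PDE_00607 was called higher, at 1.44, beside 3.36% of all genes.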

How the data were processed

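The deposited table gives, for 9832 predicted genes and 24 libraries, the count of uniquely mapped reads, the percent of the coding length covered and the RPKM. The authors mapped Illumina reads (CASAVA 1.8 is named in the submitters' processing notes) with SOAP2 (version not given in the sources used here) to predicted transcripts of the 114-2 genome. Each deposited RPKM is the authors' count divided by transcript length and library total, and the deposited coverage percent is theirs too. Length was a multiple of 3 for 99.97% of genes, so it is a coding length. A dash in the table stands for 0 reads, since the count columns then add up to the 24 totals in the file header. Replicates were not pooled, and 0 columns of per-sample values were left without a sample. No columns of the authors' own tests were in the table.

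Counts were tested in edgeR 4.0.16 (R 4.3.3) with the quasi-likelihood test, TMM scaling and 1 mean for each of 8 groups over all 24 libraries, for genes that reached 1 RPKM in 3 or more libraries. p-values were adjusted by Benjamini-Hochberg over 9176 genes, and a gene was called at an adjusted p under 0.05 and a log2 fold change over 1 in size. The common dispersion, 0.0395, corresponds to a coefficient of variation of 19.9%. The labels give replicates as separate samples and the study calls them biological. Each edgeR p-value rests on a spread estimated over the replicates of all 8 groups, not of the compared groups alone. Each group holds 3 cultures of 1 strain, so this spread does not cover differences between separately made strains. Standard errors are the log2 fold change over the root of its F value. The 95% intervals use the total degrees of freedom of the moderated fit, residual plus prior, recorded as 20.1 for 1 gene. Ratios were tested by exact permutation in Python 3.11.15 with numpy 2.4.6, pandas 2.3.3 and scipy 1.17.1. The alternatives were other scalings (median ratio, library totals), no filter, the replicate block, the compared groups alone, DESeq2 1.42.0, limma 3.58.1 on log2 RPKM and each library left out, and the edgeR step was tested on simulated data. Named genes were the members, PDE_04859, the regulators, the 5 genes with the highest r for each member and the lists' extremes; the cellulase and transporter lists are the study's. The members and lists were chosen with earlier results of these data known. A planned search of protein and promoter sequences was not run, since the annotation at hand is of another strain.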

Additional observations from a re-analysis of the deposited data

Results flagged for a closer look

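The effect of deleting *clrB* differed between the strains with and without *creA* for 3 β-glucosidase genes, by the interaction term of the count model. The interaction was -2.79 on the log2 scale for *bgl2*, -2.82 for PDE_04251 and -1.78 for PDE_04859. Behind the *bgl2* value stand a log2 fold change of -4.92 on losing *clrB* in the wild type and one of -7.71 in Δ*creA*. For PDE_04251 the same effects were -2.71 and -5.53. Groups of 3 libraries were too small for a test of single outlying samples.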

How the results depend on the processing

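For *bgl1*, *bgl2* and PDE_04251, 280 of 288 values under other settings and 228 of 234 values with a library left out kept their direction and their side of the threshold. *bgl2* in the engineered strain against Δ*creA* lost its call at 0.76 under scaling to library totals and at 0.74 with limma, whether 1 or 0.1 RPKM was added before the log2, and ran from 0.93 to 1.25 with a library left out. PDE_04251 in that comparison ran from 0.47 to 1.04 with a library left out. PDE_04251 in Δ*creA*-Δ*clrB* against Δ*clrB* became called at -1.01 under library totals and at -1.05 with limma and 0.1 RPKM added, and ran from -1.01 to -0.52 with a library left out. *bgl1* in Δ*amyR* ran from 0.79 to 1.02. PDE_04251 in Δ*clrB* against the wild type without carbon source, not called, turned to -0.18 under library totals and -0.17 with limma at either pseudocount; PDE_04859 there, at 0.09, turned to -0.28 and -0.29. The call of PDE_04859 in Δ*creA* against the wild type was lost at 0.78 under library totals, and with limma at either pseudocount. Its call in Δ*amyR* stood at the threshold. That call was lost at 0.59 under library totals, at 0.58 with limma and with the replicate block. It was also lost without wild-type replicate 2, at 0.96, and without Δ*amyR* replicate 1 or 2, at 0.95 and 0.94. The cause of these changes was not tested. The 15 ratio tests kept their side of the threshold with 1 RPKM added. Shares moved by up to 14.0 points when taken from read counts (*bgl2*, wild type on cellulose, 39.3% in place of 53.2%).

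Under scaling to library totals the median over all genes tested lay, on the log2 scale, at -0.45 in Δ*creA*, -0.43 in Δ*amyR* and -0.74 in the engineered strain, each against the wild type, at -0.37 in Δ*clrB* against the wild type without carbon source, and between -0.27 and 0.21 elsewhere. That scaling changed the genes called higher from 590 to 331 and lower from 501 to 1385 in Δ*creA*, from 308 to 150 and 384 to 1062 in Δ*amyR*, from 1036 to 446 and 1120 to 3152 in the engineered strain against the wild type, from 300 to 155 and 378 to 778 against Δ*creA*, from 917 to 577 and 733 to 1249 in Δ*creA*-Δ*clrB* against Δ*clrB*, and from 491 to 257 and 605 to 1378 in Δ*clrB* against no carbon source. It changed them from 156 to 113 and 103 to 165 in Δ*clrB*, from 277 to 200 and 479 to 741 on cellulose against no carbon source, and for the interaction from 459 to 722 and 518 to 355. The limma settings moved these counts in the same directions, most in the engineered strain against the wild type, to 369 and 387 higher and 2719 and 3210 lower. A fit of the compared groups alone called 90 genes higher in Δ*clrB* and 249 lower in the engineered strain against Δ*creA*.

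Replicate numbers did not pair the samples: the correlations of same-numbered libraries ran from -0.283 to 0.451, and in 0 of 11 comparisons did all 3 exceed 0.1. With the replicate number as a block the 36 member values kept their calls, with *bgl2* in the engineered strain against Δ*creA* at 1.05. *bgl1* on glucose rests on 52 to 69 reads a library, which limits its precision there.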

Other observations

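In the engineered strain (Δ*creA-gpdA*(p)::*clrB*) *bgl2* took 0.594% ± 0.140 (SD, n = 3) of all mapped reads, beside 0.0758% in the wild type on cellulose. In RPKM this strain also held the widest spread between replicates for all 3 genes. The highest library was 2.06 times the lowest for *bgl1*, 2.24 times for PDE_04251 and 1.62 times for *bgl2*. The orders within the 3 libraries differed: replicate 3 was highest for all 3 genes, replicate 1 was lowest for *bgl2* and PDE_04251, and replicate 2 was lowest for *bgl1*.

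Among 5 regulator genes measured beside the members, *clrB-2* (PDE_05883) had the level most like *bgl2* over the 24 libraries, with a Pearson r of 0.95 on log2(RPKM + 1), against 0.84 for *clrB*. However, *clrB*, *creA* and *amyR* were themselves deleted or driven in some of these libraries. Their r is partly set by the constructs, so the ranking is not a like-for-like comparison. Its mean was 16.1 RPKM in the wild type on cellulose. In the mutants Δ*creA*-Δ*clrB* had the lowest mean, 3.44 RPKM, and Δ*clrB* had 6.86 RPKM. The mean was 35.3 RPKM with *creA* deleted, 51.4 RPKM with *amyR* deleted and 62.9 RPKM in the engineered strain. These points share groups of 3, so r is a description.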
